A study of Mus musculus with 8 samples.

Results

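The regions described here are all those on mouse chromosome 19 in tables of H3K9me2 and H3K9me3, histone H3 carrying 2 or 3 methyl groups on lysine 9. They were chosen by chromosome alone, after removal of repeated rows, and number 421 of 16498 regions, with 60 of 1983 for H3K9me2 and 361 of 14515 for H3K9me3. Chromosome 19 was singled out because its median difference between genotypes was the largest of the autosomes in both marks, so its HAT1 KO against HAT1 WT values are given below as a description and carry no test of that choice. The marks were measured by ChIP-seq, in which chromatin bound to a modified histone is recovered with an antibody and sequenced. The cells were mouse embryonic fibroblasts (MEFs) of the C57bl6 background, immortalized with SV40, from HAT1+/+ (WT) or HAT1-/- (KO) embryos. Each genotype had 2 libraries per mark, 8 in all, and the cells of the 2 libraries came from separate embryos. Human Dbt immortalized myoblasts were mixed into every sample as a spike-in, and no other treatment separated the groups.

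H3K9me2 and H3K9me3 mark heterochromatin, the compact and mostly silent part of the genome. H3K9me3 is laid down over repeats and clustered gene families by methyltransferases such as SUV39H1 and SETDB1, whereas H3K9me2 is deposited mainly by G9a and GLP and covers broad domains at the nuclear lamina. Proteins of the HP1 family bind these marks and help to copy them onto new histones after replication. HAT1 acetylates newly made histone H4 before it is assembled into chromatin. Chromosome 19 is the shortest mouse autosome. It is rich in genes and carries tandem families expressed in other tissues, among them olfactory receptors, organic ion transporters, cytochrome P450 enzymes of the 2C subfamily and acid lipases.

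The regions with the most reads are shown first, since their sequences differ in kind. Coordinates are in mm10, whose assembly is GRCm38, and each sequence is up to 300 bases around the centre of a region, plus strand. The region with the most H3K9me3 reads lay at chr19:58113308-58113736 in an intron of Atrnl1, an attractin-like membrane protein, and also had the most H3K9me2 reads. Its centre, chr19:58113373-58113672, carries a motif repeated head to tail. Capitals mark the 21-base motif CAGTGGAGCACTGTGACACCA, found 5 times on this strand, at spacings of 21 to 42 bases, and 0 times on the other, so neighbouring copies run together.
Atrnl1 intron: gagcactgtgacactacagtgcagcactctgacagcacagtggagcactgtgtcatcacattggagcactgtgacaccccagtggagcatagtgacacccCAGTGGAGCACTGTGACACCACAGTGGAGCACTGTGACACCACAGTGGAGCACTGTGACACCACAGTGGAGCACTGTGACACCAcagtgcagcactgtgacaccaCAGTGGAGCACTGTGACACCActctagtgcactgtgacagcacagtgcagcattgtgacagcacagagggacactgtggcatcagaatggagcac
The motif was present on either strand in 0.0486% of 14398 H3K9me3 region centres and in 0.259% of 1933 H3K9me2 region centres of this length. It was chosen from this sequence as its longest run found at least 5 times without overlap.

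The second region by H3K9me3 reads, chr19:8252045-8252491, overlapped the first exon of the long noncoding RNA gene AC166748.2. Its centre, chr19:8252119-8252418, just past that exon, was 72% GC and held 23 CG dinucleotides, shown in capitals.
AC166748.2 start: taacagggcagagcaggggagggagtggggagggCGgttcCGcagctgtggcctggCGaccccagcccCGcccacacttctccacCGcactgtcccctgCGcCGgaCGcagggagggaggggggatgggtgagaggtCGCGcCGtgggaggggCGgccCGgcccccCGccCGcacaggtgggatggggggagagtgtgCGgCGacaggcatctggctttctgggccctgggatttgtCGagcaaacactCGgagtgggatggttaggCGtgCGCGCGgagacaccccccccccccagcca
A further CG-rich region with strong signal in both marks lay between genes near the end of the chromosome, 8.26 kb from the pseudogene CR555305.1. Its centre, chr19:61266910-61267209, held 15 CG dinucleotides, again in capitals.
Region near CR555305.1: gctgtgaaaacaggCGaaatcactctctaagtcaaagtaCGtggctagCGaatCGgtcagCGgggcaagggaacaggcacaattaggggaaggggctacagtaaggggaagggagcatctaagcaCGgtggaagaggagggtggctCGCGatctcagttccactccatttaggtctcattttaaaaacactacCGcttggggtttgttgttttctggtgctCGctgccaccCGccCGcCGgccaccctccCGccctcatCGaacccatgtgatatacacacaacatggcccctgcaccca

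The remaining strong region, chr19:45649953-45650358, lay in an intron of Fbxw4, which encodes an F-box and WD40 repeat protein. Its centre, chr19:45650006-45650305, was 35% GC. Capitals mark bases that the assembly does not mask as repeats.
Fbxw4 intron: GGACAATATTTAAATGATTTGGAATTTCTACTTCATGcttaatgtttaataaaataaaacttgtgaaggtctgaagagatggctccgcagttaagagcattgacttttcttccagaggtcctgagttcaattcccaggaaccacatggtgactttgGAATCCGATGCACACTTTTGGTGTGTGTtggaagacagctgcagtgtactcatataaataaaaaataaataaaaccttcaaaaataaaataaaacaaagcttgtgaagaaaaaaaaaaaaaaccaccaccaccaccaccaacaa
Each of these 4 H3K9me3 or H3K9me2 regions had 0 further copies in the genome at 90% identity over 80% of its length.

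The regions were short, with medians of 269.5 bp for H3K9me2 and 292 bp for H3K9me3. Most were single peaks, with 54 of 60 H3K9me2 regions and 318 of 361 H3K9me3 regions built from 1 peak summit. About as many H3K9me2 regions lay in genes as between them. Of the 60 regions, 5 overlapped an exon, 26 lay in introns and 29 lay between genes. The H3K9me3 regions were mostly intergenic, with 16 over exons, 122 in introns and 223 between genes. The share in genes was 51.7% for H3K9me2 and 38.2% for H3K9me3, against 40.3% and 29.4% on chromosomes 1 to 18. Bases masked as repeats made up a median of 61.7% of an H3K9me2 region and 67.9% of an H3K9me3 region. No copy elsewhere was found for 43 H3K9me2 and 226 H3K9me3 regions, whereas 8 and 78 had more than 10 copies.

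The libraries differed in depth, between 5422405 and 8421762 reads for H3K9me2 and between 4198682 and 5810913 for H3K9me3, and KO libraries were the shallower in both marks. Across chromosome 19 the median H3K9me2 count per region was 25 and 28 in KO and 14 and 13 in WT. The median H3K9me3 count was 24 and 26 in KO and 11 and 11 in WT, so a single region rests on few reads. WT replicate 1 had reads in all 10 H3K9me2 and all 28 H3K9me3 regions of chromosome Y, whereas the other libraries had reads in 7 and in 17 to 20 of them. Values without that library are given beside some of the results that it moved. The disrupted gene lies on another chromosome and 0 regions overlapped it, so these tables check neither the genotype nor the fibroblast identity of the cells.

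Signal on chromosome 19 was higher in KO than in WT in both marks. Levels are given as RPM, reads scaled to a common library size, in which the authors added 1 to each count. The median H3K9me2 region had 4.71 and 5.35 RPM in the KO libraries and 1.78 and 2.15 RPM in the WT libraries. The median H3K9me3 region had 5.95 and 5.84 RPM in KO and 2.07 and 2.11 RPM in WT. No KO value overlapped a WT value in either mark. On chromosomes 1 to 18 the medians were 3.44 and 4.24 RPM in KO and 2.02 and 2.46 RPM in WT for H3K9me2, and 4.53 and 4.76 RPM against 2.24 and 2.28 RPM for H3K9me3. Thus chromosome 19 lay above the other autosomes in every KO library and below them in every WT library.

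**Figure D1:**
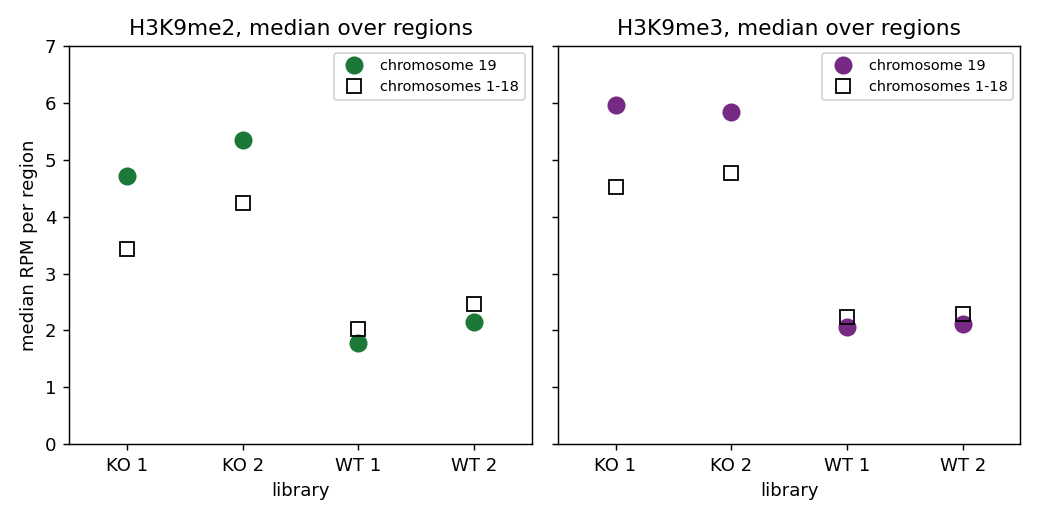
Median RPM per region (y axis) in each library (x axis), with filled circles for chromosome 19 and open squares for chromosomes 1 to 18. The circles sit above the squares in the 4 KO libraries and just below them in the 4 WT libraries.

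The same pattern was seen within each library, where it does not depend on library size. The median of chromosome 19 minus that of chromosomes 1 to 18 on the log2 RPM scale was 0.45 and 0.33 in the KO and -0.18 and -0.19 in the WT libraries of H3K9me2. For H3K9me3 it was 0.40 and 0.30 in KO and -0.12 and -0.12 in WT. The KO libraries were apart from the WT libraries by more than the spread within a genotype. No test is given, since this contrast chose the chromosome and 2 libraries against 2 could not reach an exact permutation p below 0.333.

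Reads in chromosome 19 regions made up 0.0404% (95% Wilson interval 0.0388 to 0.0421%) and 0.0436% (0.0419 to 0.0454%) of all H3K9me2 reads in KO. In WT they made up 0.0198% (0.0189 to 0.0208%) and 0.0230% (0.0219 to 0.0242%). For H3K9me3 the shares were 0.239% (0.235 to 0.244%) and 0.234% (0.229 to 0.238%) in KO. They were 0.104% (0.102 to 0.107%) and 0.100% (0.0975 to 0.103%) in WT. These intervals cover counting error only. The group means differed 1.96-fold for H3K9me2, at 0.0420% ± 0.0023 in KO and 0.0214% ± 0.0023 in WT (SD, n = 2), and 2.32-fold for H3K9me3, at 0.237% ± 0.0040 and 0.102% ± 0.0030. As a percent of the reads in all regions the folds were smaller, at 1.22 for H3K9me2 (0.454% in KO and 0.371% in WT) and 1.47 for H3K9me3 (1.18% and 0.802%). No input library was used, so the number of copies of the chromosome in each line and the amount of mark per copy cannot be told apart.

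Region by region, differences are given as log2 of KO over WT mean counts with a pseudocount of 1. Under library totals, the median difference on chromosome 19 was 1.32 for H3K9me2 and 1.40 for H3K9me3, and 57 of 60 and 347 of 361 regions were higher in KO. Scaling by the trimmed mean of M-values (TMM), which centres the bulk of regions on no change, moved the median over chromosomes 1 to 18 from 0.73 to 0.08 in H3K9me2 and from 0.97 to 0.01 in H3K9me3. After TMM the chromosome 19 medians were 0.69 and 0.45, and 49 of 60 (81.7%) and 278 of 361 (77.0%) regions were higher in KO, against 53.7% and 50.6% on chromosomes 1 to 18. The lower and upper quartiles were 0.14 and 0.94 in H3K9me2, and 0.05 and 0.79 in H3K9me3.

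Relative to chromosomes 1 to 18, the median of chromosome 19 was higher by 0.60 for H3K9me2 and by 0.44 for H3K9me3. The next autosome was chromosome 17 for H3K9me2, at 0.33, and chromosome 14 for H3K9me3, at 0.15. Chromosome X stood at 0.24 and 0.36. The excess of chromosome 19 was 0.41 for H3K9me2 when KO replicate 2 was left out and 0.50 when WT replicate 1 was left out. For H3K9me3 it ranged from 0.37 to 0.49 over the 4 libraries left out in turn.

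**Figure D2:**
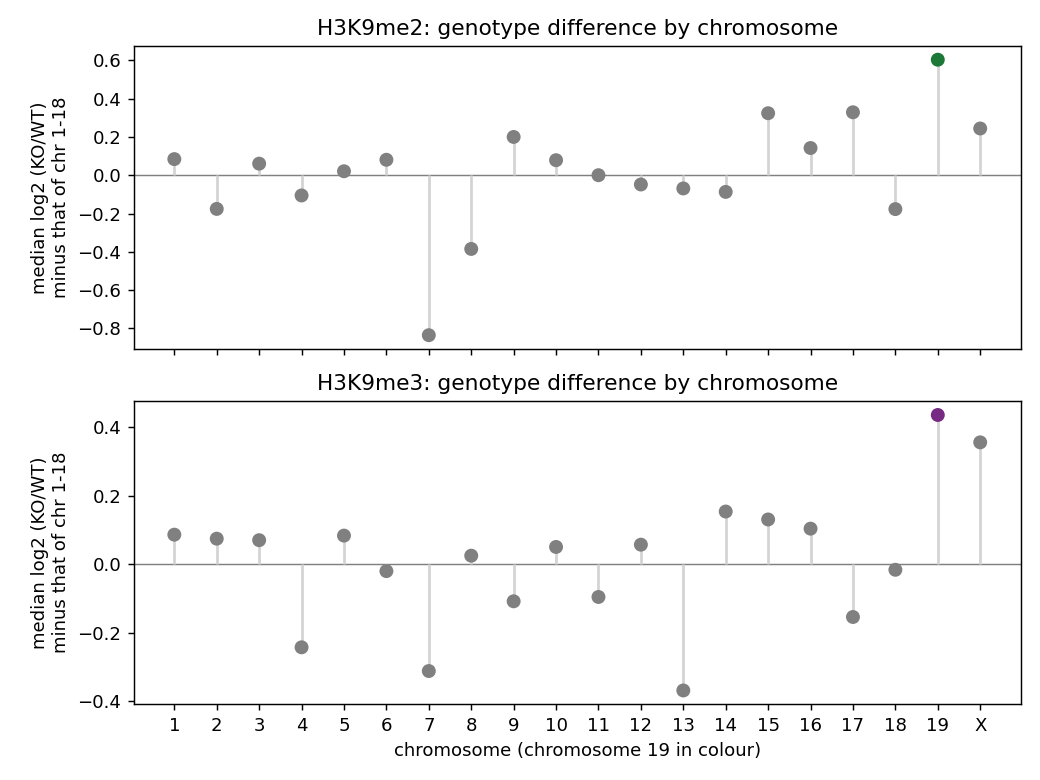
Median log2 of KO over WT after TMM scaling for each chromosome, minus the median over chromosomes 1 to 18 (y axis), for H3K9me2 (top) and H3K9me3 (bottom). Chromosome 19, in colour, stands highest in both panels, at 0.60 and 0.44.

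Both KO libraries lay above both WT libraries after TMM scaling in 21 H3K9me2 regions (35%) and 114 H3K9me3 regions (31.6%), against 20% and 17.3% over all regions of each mark. Both lay below in 5 (8.33%) and 30 (8.31%), against 16.7% and 19.1%. With library totals the KO libraries were above in 44 and 289 regions, where 45.5% and 57.6% of all regions were so. These counts come from the contrast that chose the chromosome and are given only as a description.

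Replicates of a genotype differed widely at single regions. The RPM of the WT libraries differed by more than 2-fold in 19 of 60 H3K9me2 regions and in 87 of 361 H3K9me3 regions. That of the KO libraries did so in 21 and 112 regions. The highest of the 4 libraries was a KO library in 54 H3K9me2 regions, 20 of them KO replicate 1 and 34 KO replicate 2. For H3K9me3 it was KO replicate 1 in 167 regions and KO replicate 2 in 175.

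Few single regions passed the test. edgeR's quasi-likelihood test with TMM scaling and a Benjamini-Hochberg FDR under 0.05 called 1 of 60 H3K9me2 regions, lower in KO, where 1.92% of all H3K9me2 regions were called and 1.71% were called lower. It called 1 of 361 H3K9me3 regions, higher in KO, where 0.999% of all were called and 0.0276% were called higher. At an unadjusted p under 0.05 the counts were 1 and 26, where 9.33% and 9.14% of all regions passed. With library totals alone, 1 H3K9me2 and 13 H3K9me3 regions were called, all higher in KO, against 5.5% and 0.785% called higher over all regions. DESeq2 called 1 and 0, where 1.11% and 0.572% of all regions were called, and gave no adjusted p for the H3K9me3 region that edgeR called.

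The H3K9me2 region that was called lay within Asrgl1, which encodes an asparaginase-like enzyme. It overlapped an exon of a noncoding transcript and an intron of the coding transcript. It had 75 and 82 reads in KO against 154 and 137 in WT, and RPM was 13.8 and 15.3 in KO and 18.4 and 21.2 in WT. Both KO values were below both WT values on either scale. The log2 fold change was -1.12 (SE 0.32) with an edgeR FDR of 0.0313. With library totals the log2 fold change was -0.45 and the FDR 0.453. Without KO replicate 1 the fold change was -1.09 (FDR 0.799) and without KO replicate 2 it was -1.16 (FDR 0.914), and in those fits 0 of all 1983 H3K9me2 regions were called, with 81 and 80 at an unadjusted p under 0.05. The H3K9me3 region that overlaps it had a log2 difference of -0.98 after TMM and 0.02 with library totals.

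The H3K9me3 region that was called, chr19:16737376-16737792, lay in an intron of Vps13a, which encodes a lipid transfer protein. It had 18 and 30 reads in KO and 0 in both WT libraries. With a floor of 3 counts over the WT group, it was at least 10.3-fold higher in KO after TMM scaling and at least 20.9-fold higher with library totals. The edgeR FDR was 0.0377 with TMM and 0.00149 with library totals. The TMM call was lost without any 1 of the 4 libraries, with FDRs of 0.157 and 0.193 without KO replicate 1 and 2 and of 0.123 and 0.229 without WT replicate 1 and 2, and with the replicate number as a block, at an FDR of 0.0675. The fitted log2 fold change, 7.29 with all libraries and no bound, stayed between 6.87 and 7.46. Its centre, chr19:16737435-16737734, was 91.3% masked as repeats, in lower case below.
Vps13a intron: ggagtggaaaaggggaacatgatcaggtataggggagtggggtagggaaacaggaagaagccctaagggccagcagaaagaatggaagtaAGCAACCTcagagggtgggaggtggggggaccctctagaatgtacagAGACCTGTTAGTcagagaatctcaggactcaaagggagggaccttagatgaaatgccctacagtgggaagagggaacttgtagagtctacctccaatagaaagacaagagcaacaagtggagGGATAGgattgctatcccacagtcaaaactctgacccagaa

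Among the other H3K9me2 regions whose groups were separated after TMM, with a mean count of at least 10, the largest positive values belonged to weak regions outside coding genes. An intronic region of the noncoding RNA gene AC106834.1 (chr19:21225653-21226093) had 12 and 29 reads in KO against 1 and 7 in WT. Its edgeR log2 fold change was 2.06 (SE 1.29, FDR 0.703), and ranged from 1.25 without WT replicate 1 to 3.91 without WT replicate 2. A region 60.4 kb from the pseudogene AC116451.2 (chr19:49770500-49770739) had 19 and 27 against 3 and 7, at 1.93 (SE 1.09, FDR 0.652). Another region, 49.4 kb from the pseudogene AC140053.1 (chr19:18155539-18155778), had 25 and 30 against 10 and 7, at 1.45 (SE 0.89, FDR 0.697). None of these passed the test. Below both WT libraries after TMM, but not with library totals, lay a region 5.59 kb from Malat1, an abundant nuclear noncoding RNA (chr19:5808262-5808499), with 35 and 21 against 44 and 44 counts, at -0.88 (SE 0.56, FDR 0.717). So did a region 41.5 kb from AC121552.1 (chr19:35658528-35658829), with 13 and 25 against 23 and 26, at -0.61 (SE 0.76, FDR 0.792).

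The corresponding H3K9me3 regions were similar in strength. After the Vps13a region, the largest positive value was at chr19:51419789-51420027, in a stretch without coding genes, with 27 and 18 reads in KO against 3 and 1 in WT, where the edgeR log2 fold change was 2.82 (SE 1.20, FDR 0.361 after TMM and 0.0498 with library totals). A region 6.88 kb from the pseudogene AC115715.1 (chr19:7855545-7855784) had 23 and 18 against 4 and 0, at 2.67 (SE 1.28, FDR 0.491), and 686 further copies of it were found in the genome. Without WT replicate 1 the WT count there was 0, so no fold is given. On the negative side, an intronic region of Lcor, a ligand-dependent corepressor (chr19:41552896-41553145), had 25 and 27 against 44 and 56, at -1.56 (SE 0.54, FDR 0.159). A second intronic region of Atrnl1 (chr19:57718823-57719061) had 3 and 9 against 14 and 16, at -1.96 (SE 1.05, FDR 0.588). A region 12.3 kb from AC134591.1 (chr19:57556558-57556812) had 10 and 14 against 28 and 18, at -1.58 (SE 0.69, FDR 0.385). None of these 5 passed after TMM. Without WT replicate 1 the Lcor region was called, at an FDR of 0.0361, as the 1 H3K9me3 region of 361 on chromosome 19, where 450 of all 14515 were called.

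The strongest regions, those with the sequences printed first, were mostly higher in KO in RPM, but the sign turned after TMM for H3K9me3 at Atrnl1, AC166748.2 and Fbxw4 and for H3K9me2 at AC166748.2. At the Atrnl1 motif repeat, H3K9me2 was 44.0 and 40.6 RPM in KO and 22.4 and 24.6 RPM in WT, and H3K9me3 was 95.5 and 109 RPM in KO and 77.4 and 51.8 RPM in WT. The edgeR log2 fold changes with TMM were 0.18 (SE 0.26, FDR 0.811) for H3K9me2 and -0.37 (SE 0.35, FDR 0.877) for H3K9me3, and the latter was 0.01 without WT replicate 1. This H3K9me2 region was the only one called with library totals, at an FDR of 0.0405. At the start of AC166748.2, H3K9me3 was 71.7 and 63.2 RPM in KO and 67.1 and 34.6 RPM in WT, with the 2 WT libraries far apart, and the edgeR log2 fold change with TMM was -0.62 (SE 0.37, FDR 0.667). Without WT replicate 2 it was -1.06 and called lower in KO (FDR 0.00118, with 191 of all 14515 regions called), and without WT replicate 1 it was 0.01, so the sign rests on WT replicate 1. H3K9me2 there was 17.2 and 17.3 RPM in KO and 11.2 and 12.9 RPM in WT, and after TMM the KO libraries were both below the WT libraries, with a log2 fold change of -0.15 (SE 0.34). At Fbxw4, H3K9me2 was 43.4 and 36.9 RPM in KO and 24.1 and 23.1 RPM in WT, and H3K9me3 was 57.2 and 43.3 RPM in KO and 37.3 and 35.6 RPM in WT. The TMM log2 fold changes there were 0.09 (SE 0.26) for H3K9me2 and -0.55 (SE 0.39) for H3K9me3. The region near CR555305.1 had 25.3 and 22.1 RPM of H3K9me2 in KO and 11.8 and 15.9 RPM in WT. In RPM all of these but H3K9me3 at AC166748.2 were separated by genotype, with KO above WT. The same held in 45.5% of all H3K9me2 and 57.6% of all H3K9me3 regions. With all 4 libraries none was called after TMM, where 1.92% and 0.999% of all regions were.

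**Figure D3:**
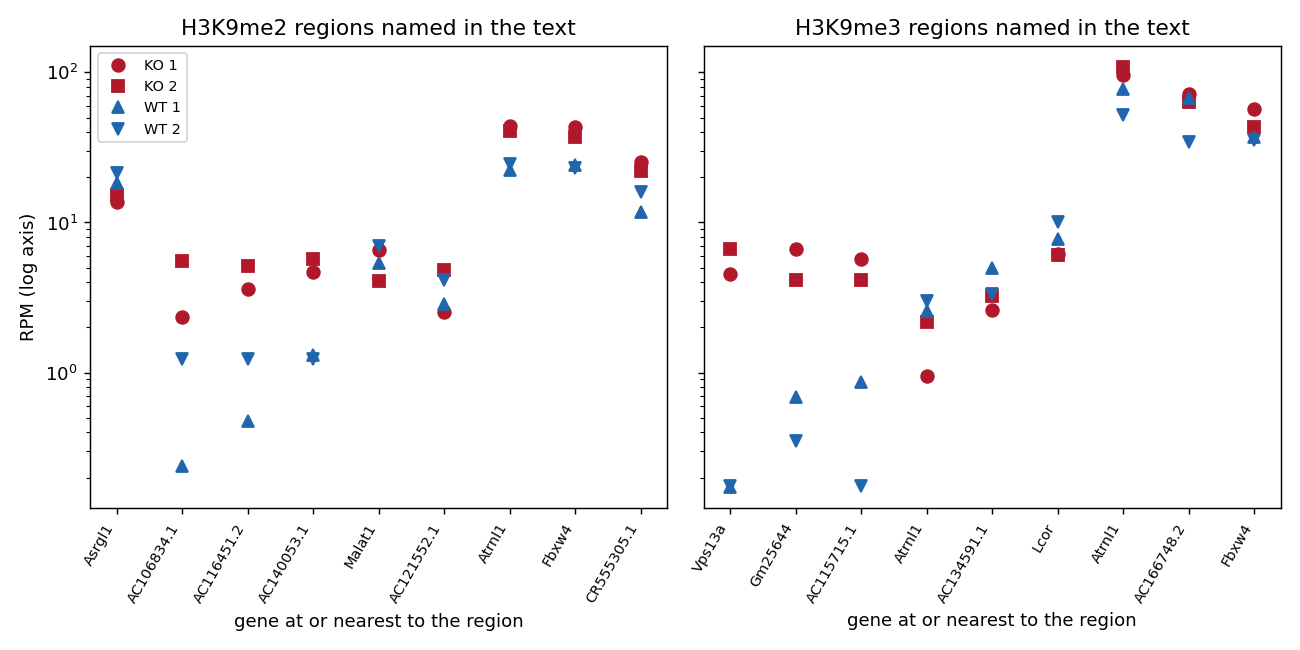
RPM on a log axis (y) in each of the 4 libraries for the H3K9me2 (left) and H3K9me3 (right) regions named in the text, ordered by the rule that chose them, with the gene at or nearest to each region on the x axis. Red symbols are KO and blue symbols WT, and a count of 0 is drawn at the RPM of 1 read because the authors added 1 to each count. The separation of red from blue is widest at Vps13a, whose WT counts are 0.

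Position along the chromosome was examined in 1 Mb bins. H3K9me3 regions were clustered, with 145 of 361 (40.2%) in the 5 fullest bins of 59 bins that hold sequence. The fullest were 13 to 14 Mb with 44 regions, 39 to 40 Mb with 33 and 51 to 52 Mb with 30. H3K9me2 regions occupied 29 bins, with 7 in the bin at 39 to 40 Mb, 5 at 49 to 50 Mb and 4 in each of the bins at 9 to 10, 20 to 21 and 27 to 28 Mb. Across the 58 bins in which most bases are known, the number of H3K9me3 regions per bin had a Spearman rho of -0.69 with GC content, 0.63 with masked repeats and -0.30 with coding genes. For H3K9me2 these were -0.41, 0.60 and 0.01. Bins share neighbouring sequence and base composition, so these values are descriptive.

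The genotype difference was spread along the chromosome. Of 24 bins with at least 5 H3K9me3 regions, 23 had a median above that of chromosomes 1 to 18. The median over the bins was 0.45. Over all occupied bins, many with few regions, 42 of 52 were above for H3K9me3 and 25 of 29 for H3K9me2. Among the 24 H3K9me3 bins with at least 5 regions, the exception was 18 to 19 Mb, at -0.36 in 5 regions. The next lowest of these were 8 to 9 Mb at 0.07 and 57 to 58 Mb at 0.08. The highest of the 24 were 22 to 23 Mb at 1.61 in 6 regions, 20 to 21 Mb at 0.98 in 11 and 15 to 16 Mb at 0.87 in 6. Bins with fewer H3K9me3 regions ranged more widely, from -1.25 at 24 to 25 Mb (1 region) to 2.15 at 16 to 17 Mb (2 regions). For H3K9me2 only 2 bins had 5 regions or more, and their values were 0.60 at 39 to 40 Mb and 1.15 at 49 to 50 Mb. With library totals the median was above 0 in 49 of 52 bins holding an H3K9me3 region and in 27 of 29 holding an H3K9me2 region.

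**Figure D4:**
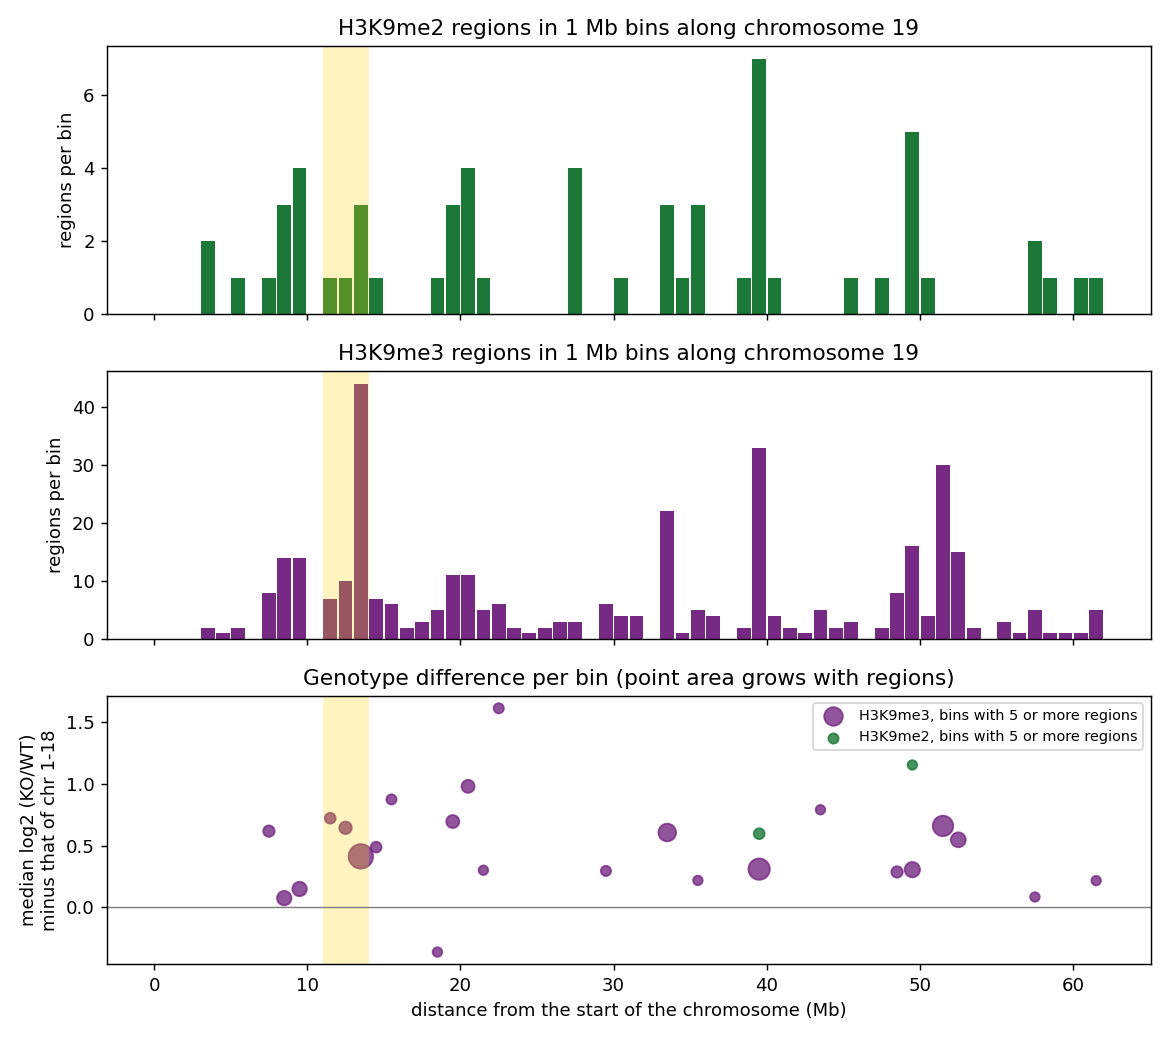
Regions per 1 Mb bin for H3K9me2 (top) and H3K9me3 (middle), and the median log2 of KO over WT of a bin after TMM minus the median of chromosomes 1 to 18 (bottom), against distance from the start of the chromosome in Mb. Shading marks 11 to 14 Mb, which holds the olfactory receptor cluster, and 23 of 24 H3K9me3 points lie above 0.

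Among bins with at least 5 H3K9me3 regions, that at 22 to 23 Mb had the largest shift. All 6 of its H3K9me3 regions lay in introns of Trpm3, a cation channel gene (chr19:22139046-22995410). Their counts were 21 to 37 in KO replicate 1, 3 to 40 in KO replicate 2, 0 to 9 in WT replicate 1 and 4 to 8 in WT replicate 2. All 6 were higher in KO under either scaling, and the KO libraries were both above the WT libraries in 5 of them after TMM, as in 17.3% of all H3K9me3 regions. KO replicate 2 fell among the WT values in the remaining region, with 3 counts. The median log2 difference after TMM was 1.63. With library totals, the region at chr19:22423845-22424192, with 21 and 40 counts against 2 and 7, was called (edgeR FDR 0.0155, where 0.785% of all were called higher), and after TMM 0 of the 6 were called (0.999% of all). The gene was named after its values were seen. Hpse2, a heparanase family gene, also held 6 H3K9me3 regions, of which 5 were higher in KO after TMM.

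The interval from 11 to 14 Mb held 61 H3K9me3 and 5 H3K9me2 regions. The median H3K9me3 region there had 6.19 and 5.84 RPM in KO and 2.07 and 2.11 RPM in WT, close to the 5.95, 5.62, 2.15 and 2.11 RPM of the rest of the chromosome. After TMM, 52 of 61 regions were higher in KO, and the excess over chromosomes 1 to 18 was 0.52, against 0.42 for the rest of the chromosome, where 226 of 300 regions were higher. The bins from 11 to 12, 12 to 13 and 13 to 14 Mb stood at 0.72, 0.64 and 0.41. For H3K9me2 the interval stood at 0.60 and the rest of the chromosome at 0.61. The excess of chromosome 19 was thus present outside the olfactory receptor interval in both marks.

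Olfactory receptors are odorant-binding receptors of sensory neurons and are silent in fibroblasts. The annotation holds 91 of their genes and pseudogenes on chromosome 19, between 11826803 and 13921866. An H3K9me3 region lay within 5 kb of 36 of them, 41 regions in all, and an H3K9me2 region near 1. All 41 were higher in KO with library totals and 35 after TMM, with medians of 1.38 and 0.41. At receptor genes on chromosomes 1 to 18, 247 of 273 H3K9me3 regions were higher with library totals and 145 after TMM, with medians of 1.01 and 0.08. Near Olfr1494, the region at chr19:13749358-13749947 had 26 and 48 reads in KO against 8 and 15 in WT. Near Olfr1495, 39 and 59 stood against 15 and 34, and near Olfr1450, 41 and 32 against 17 and 21. The region by Olfr1483-ps1 had 37 and 44 against 28 and 18. Scaled to library totals KO was above WT at each of these 4, as in 57.6% of all H3K9me3 regions, and after TMM at Olfr1494 alone, as in 17.3% of all. After TMM 0 of the 41 regions were called, where 0.999% of all H3K9me3 regions were. With library totals 2 were called higher, where 0.785% of all were, at chr19:13089212-13089542 near Olfr1457, with 38 and 27 reads against 4 and 6 (edgeR FDR 0.0116), and at chr19:13820662-13821179 near Olfr1499, with 47 and 37 against 12 and 14 (FDR 0.0455).

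Members of the Slc22a family carry organic anions and cations across membranes, mostly in kidney and liver. Of 10 genes on the chromosome, 4 had H3K9me3 within 5 kb, in 14 regions, and 2 had H3K9me2, in 3 regions. After TMM 11 of the 14 and all 3 were higher in KO, with medians of 0.48 and 0.90. The strongest H3K9me3 region at Slc22a28 had 60 and 27 reads in KO against 30 and 23 in WT, and that at Slc22a30 had 42 and 30 against 28 and 24. At Slc22a27 it had 25 and 62 against 17 and 15, and at Slc22a29 it had 23 and 32 against 11 and 22. Scaled to library totals KO was above WT at each of these 4, as in 57.6% of all H3K9me3 regions. After TMM this held at Slc22a27 alone, as in 17.3% of all, and at Slc22a30 the TMM log2 difference was -0.13. An intronic region of Slc22a27 (chr19:7877115-7877355), with 27 and 34 against 0 and 11, was called with library totals (edgeR FDR 0.0277) but not after TMM (FDR 0.377). Over all H3K9me3 regions 0.785% were called higher with library totals.

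Cyp2c enzymes oxidize drugs, fatty acids and steroids in the liver. An H3K9me3 region lay near 12 of 17 genes and pseudogenes, in 23 regions, and an H3K9me2 region near 5, in 6 regions. All 29 were higher in KO with library totals, and after TMM 22 of 23 and 6 of 6 were, with medians of 0.39 and 0.55. Much of the signal was at the pseudogene Cyp2c53-ps, where H3K9me3 was 25.01 and 26.8 RPM in KO and 13.6 and 11.8 RPM in WT at chr19:39260557-39260953. H3K9me2 at chr19:39259859-39260208 was 17.6 and 18.3 RPM in KO and 10.1 and 10.8 RPM in WT. At chr19:39266967-39267441, in an intron of Cyp2c53-ps and within 5 kb of Cyp2c29, H3K9me3 was 20.7 and 15.1 RPM in KO and 7.23 and 5.79 RPM in WT. These 3 regions had 705, 1706 and 933 further copies in the genome, in the order given. In RPM the genotypes did not overlap at any of the 3, where KO was above WT in 57.6% of all H3K9me3 and 45.5% of all H3K9me2 regions, and after TMM they overlapped at all 3. With either scaling 0 of the 29 regions were called. Over all regions 1.92% (H3K9me2) and 0.999% (H3K9me3) were called after TMM and 5.5% and 0.785% were called higher with library totals, so a count of 0 in 29 lies near the background.

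Acid lipase genes hydrolyse lipid esters. Of 10 such genes, 4 had H3K9me3 within 5 kb, in 13 regions, and 2 had H3K9me2. The span of Lipo3 held 11 H3K9me3 regions, the most of any gene on the chromosome, and 8 of them were higher in KO after TMM. Lipo2 and the coding gene Gm8978 lie within that span, so these regions are not those of Lipo3 alone. The region at chr19:33624583-33625057, which also lies in Gm8978, had 32 and 30 reads in KO against 9 and 2 in WT. It was called with library totals (edgeR FDR 0.0232), where 0.785% of all H3K9me3 regions were called higher, but not after TMM (FDR 0.362). Over the family, 10 of 13 H3K9me3 regions were higher after TMM, with a median of 0.59. Of the membrane-spanning 4A genes, which encode surface proteins of immune cells, 2 of 19 had a region nearby. Near Ms4a4b H3K9me3 had 47 and 46 reads in KO against 15 and 7 in WT. That region was called with library totals (edgeR FDR 0.0116), again where 0.785% of all were called higher, but not after TMM (FDR 0.362). At Ms4a4c it had 29 and 19 against 15 and 29, so the groups overlapped there. No region lay within 5 kb of the 6 interferon-induced Ifit genes or the 4 zinc finger genes.

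**Figure D5:**
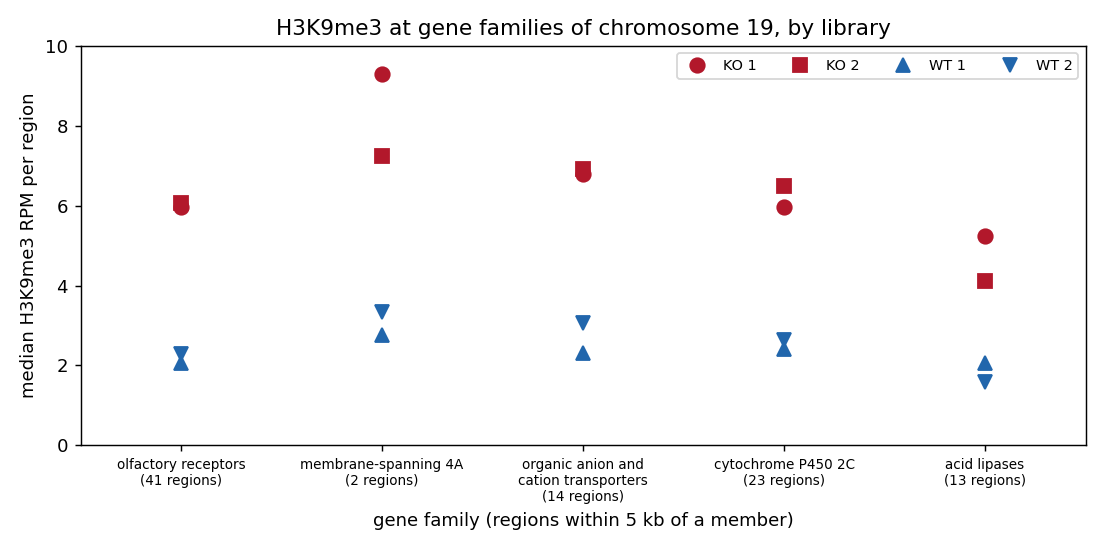
Median H3K9me3 RPM per region (y axis) in each library over the regions within 5 kb of a member of 5 gene families (x axis), with red for KO and blue for WT. In every family both KO libraries lie above both WT libraries, with olfactory receptors at 5.95 and 6.06 against 2.07 and 2.28 RPM.

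The places of the marks, which the choice of the chromosome did not use, were compared. Of 60 H3K9me2 regions, 22 (36.7%) overlapped an H3K9me3 region by at least 1 bp, and these were 22 (6.09%) of the H3K9me3 regions. On chromosomes 1 to 18 the shares were 38.6% and 5.12%. Shared regions were stronger, with a median of 7.24 RPM of H3K9me3 against 3.84 RPM where H3K9me2 was not called, and 4.47 RPM of H3K9me2 against 3.04 RPM. They were also wider, at a median of 416.5 bp against 287 bp for H3K9me3. All 6 H3K9me2 regions with more than 1 summit were among them. Of the 22 pairs, 21 were higher in KO in both marks with library totals. After TMM 14 were higher in both and 3 were lower in both. These genotype counts use the contrast that chose the chromosome.

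The genotype difference of a pair in H3K9me3 minus that in H3K9me2 was estimated with an edgeR interaction term over the 775 shared pairs of all chromosomes. At an FDR under 0.05 it called 0 pairs (0%). An unadjusted p under 0.05 was found for 50 (6.45%). With the replicate number as a block 34 (4.39%) were called, 0 of them on chromosome 19. The estimates of the 22 pairs on chromosome 19 ranged from -1.64 to 1.51 with a median of -0.05. They rest on the contrast that chose the chromosome, and no test is read for them.

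The share of reads in regions that fell on chromosome 19 was compared between the marks. Leaving out the 10 regions with the most reads in each mark, chromosome 19 held 2.54% and 2.37% of the H3K9me3 reads in autosomal regions in KO and 1.86% and 1.64% in WT. For H3K9me2 it held 1.48% and 1.67% in KO and 1.39% and 1.25% in WT. The means were 2.101% ± 0.42 and 1.45% ± 0.18 (SD, n = 4 libraries of both genotypes), a difference of 0.656 percentage points. The highest H3K9me2 library passed the lowest H3K9me3 library, and the exact two-sided permutation p was 0.0571, where 4 against 4 can give 0.0286. This p lay above 0.05. With all autosomal regions the difference was 0.623 percentage points, the marks did not overlap and p was 0.0286 (exact permutation test). The p thus depends on whether the strongest regions are left out, and neither p is read as a verdict. Within each genotype and replicate number H3K9me3 was the higher in 4 of 4 pairs, and an exact sign-flip permutation test over these pairs gave p = 0.125, the smallest it can give. The labels do not say that a number marks the same cells in both marks. Since genotypes are pooled, the shift that chose the chromosome enters the overlap, in which a KO library of H3K9me2 passed a WT library of H3K9me3, and the p is given as a description. By number of regions the order was the reverse, with 2.73% of autosomal H3K9me3 regions and 3.37% of H3K9me2 regions on chromosome 19.

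The excess of chromosome 19 was present in regions of every strength. When all regions of a mark were split into quartiles by mean count, chromosome 19 exceeded chromosomes 1 to 18 by 0.37, 0.54, 0.49 and 0.51 from the weakest to the strongest quartile of H3K9me3, which held 61, 75, 99 and 126 of its regions. For H3K9me2 the values were 0.51, 0.54, 0.78 and 0.18, in 5, 17, 28 and 10 regions. Regions with no copy elsewhere stood at 0.49 for H3K9me3 and 0.61 for H3K9me2, and those with over 10 copies at 0.28 and 0.21. Copies were counted for chromosome 19 regions only, so these values are set against all regions of chromosomes 1 to 18. The other classes here are set against the same class on those chromosomes. Regions in genes and between genes stood at 0.47 and 0.44 for H3K9me3 and at 0.61 and 0.71 for H3K9me2. H3K9me3 regions that overlap H3K9me2 stood at 0.74 and the others at 0.42, and this difference was not tested.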

How the data were processed

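Per the study's methods and the submitters' processing notes, the authors aligned paired-end reads to mm10 with BWA 0.7.12, called peaks with MACS2 2.1.0 and named DiffBind. The read counts per region were used as deposited, without normalization. RPM as deposited was (count + 1) over 1 total per library, within 0.000483%, which gave the library totals. No source used here states whether the totals include or were scaled by the spike-in, and reads from human chromatin cannot be told apart here. The authors' columns of fold enrichment, log2 fold change, p-value and q-value were not used. Repeat rows (62 of 2045 and 314 of 14829) were removed. Deposited starts were read as counted from 0, since widths equal end minus start. They are printed as deposited, whereas sequence coordinates are counted from 1.

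Counts were tested over all regions of a mark with edgeR 4.0.16 (R 4.3.3), library totals with TMM factors, no filter, no block and Benjamini-Hochberg adjustment. The SE beside an edgeR log2 fold change was derived as its absolute value over the square root of the F statistic. Library values were compared by exact two-sided permutation tests (scipy 1.17.1). The fits were checked on simulated data. Genes came from GENCODE M21, sequences from the RefSeq GRCm38.p6 assembly, copies from BLAST 2.17.0 and overlaps from bedtools 2.31.1. The chromosome, gene families, bins and named regions were chosen with earlier results of these data known. Named for each mark were called regions, the 3 highest and 3 lowest edgeR log2 fold changes among regions with a mean count of at least 10 and separated groups, the 3 regions with the highest mean RPM and the 3 strongest shared pairs. Bins named were the 3 fullest, the 3 highest and the 3 lowest with at least 5 regions, and 11 to 14 Mb. Up to 4 genes of each family were named by count, and regions called only with library totals, Trpm3 and Hpse2 were named after their values were seen. Alternatives were other scalings, DESeq2 1.42.0, filters, pseudocounts of 0.1 and 5, blocks and left-out libraries. The sequence of the called H3K9me2 region is not reported here.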

Additional observations from a re-analysis of the deposited data

Results flagged for a closer look

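At 1 shared pair on chromosome 19 both KO libraries lay on opposite sides of both WT libraries in the marks after TMM. Of the 22 pairs there, 17 had the same sign of the TMM difference in both marks. The share of oppositely separated pairs over all chromosomes is not given here. At chr19:39354042-39354308, in the Cyp2c cluster, H3K9me3 was lower in both KO libraries than in both WT libraries after TMM (log2 difference -0.73), and H3K9me2 was higher in both (0.86). The edgeR interaction estimate was -1.64 (FDR 0.663). This estimate rests on the contrast that chose the chromosome, and no test is read for it. With library totals both marks were higher in KO, at 0.24 and 1.48.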

How the results depend on the processing

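The median excess of chromosome 19 over chromosomes 1 to 18 stayed above 0 under every alternative run in both marks. From 0.60 (H3K9me2) and 0.44 (H3K9me3) it went to 0.50 and 0.36 with a pseudocount of 5, and ranged from 0.41 to 0.68 and from 0.37 to 0.49 over left-out libraries. Chosen after seeing the data were the quartiles of signal, at 0.51, 0.54, 0.78 and 0.18 for H3K9me2 and 0.37, 0.54, 0.49 and 0.51 for H3K9me3, and regions without copies, at 0.49 for H3K9me3. The genotype difference in percent of library reads without the 3 strongest regions was 0.0161 in place of 0.0206 in H3K9me2 and 0.128 in place of 0.134 in H3K9me3, and was 0.0825 and 0.377 as percent of region reads, on a smaller total.

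For H3K9me2 the calls were 1 in the opposite direction with library totals, 0 with region totals and 0 to 1 with a library left out (0 without either KO library). For H3K9me3 they were 13 with library totals, 0 by DESeq2 and 0 to 1 with a library left out. Without KO replicate 1 or 2 edgeR called 0 (3 and 5 of all 14515), and without WT replicate 1 or 2 it called 1 other region (450 and 191 of all 14515). The cause was not tested. The mark comparison of 0.656 percentage points became 0.623 with all autosomal regions (exact permutation p = 0.0286), ranged from 0.51 to 0.81 over left-out libraries and turned to -0.635 by number of regions. Genotypes are pooled in this comparison, so its p is given as a description.

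Replicate numbers were not taken as pairs of KO and WT libraries, whose deviations correlated at 0.0300 for H3K9me2 and 0.00423 for H3K9me3. Across marks, same-numbered libraries correlated at 0.709 in WT but at -0.0395 in KO. With the replicate block, the excess was 0.60 and 0.45, H3K9me2 kept 1 call and H3K9me3 had 0 (Vps13a log2 fold change 7.30, edgeR FDR 0.0675). The block left the mark comparison at 0.656 (exact permutation p = 0.125). Precision at single regions is limited by 2 libraries per genotype and median counts of 11 to 28.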

Other observations

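At the Fbxw4 intron the 2 tables held equal counts for the KO libraries, 239 and 199 in both marks, beside 202 and 149 for H3K9me2 and 216 and 202 for H3K9me3 in WT. Equal counts in both marks were found at 20 of 775 shared pairs for KO replicate 1 and at 18 for KO replicate 2, and this was the only pair equal in both KO libraries with counts above 0. It was singled out after its values were seen, and its cause was not tested.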
